A study of Saccharomyces cerevisiae with 103 samples.

Results

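The 5 genes of the meiotic mRNA methylation pathway of budding yeast described here were followed through sporulation, the return to growth and mutants of mRNA decay: IME4 (YGL192W), MUM2 (YBR057C), SLZ1 (YNL196C), KAR4 (YCL055W) and PHO92 (YDR374C). They were chosen by name, as the subunits and the reader of the N6-methyladenosine (m6A) mark, and are 5 of the 6692 genes in the RNA count table. The 103 libraries came from 5 experiments in the rapidly sporulating strain SK1, with 50 RNA-seq libraries, 50 libraries of poly(A) tags and 3 RNA-seq libraries made by another protocol. The poly(A) tag assay counts mRNA 3′ ends and reads the length of each tail.

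Ime4 is the catalytic subunit of the yeast m6A methyltransferase, related to mammalian METTL3, and is needed for sporulation. Mum2 and Slz1 are its partners in the MIS complex, and Slz1 is made in meiosis. Kar4 is related to METTL14 and is also known as a transcription factor that acts with Ste12 in the response to mating pheromone. Pho92 carries a YTH domain, which binds methylated adenosine, and it takes its name from its effect on PHO4 mRNA. Early meiotic genes of yeast are known to carry a URS1 site in their promoters, bound by Ume6, through which the regulator Ime1 switches them on.

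In the sporulation course, wild-type cells were taken hourly from 0 to 9 h after transfer to sporulation medium (SPO), with 2 replicates an hour. In the return to growth, cells at 1 h or at 7 h in SPO were moved to YPD, a rich glucose medium, and libraries were made from cells before the move, 5 min after it and 20 min after it, with 2 replicates each. In the strain experiment, wild type and homozygous deletions of CCR4, POP2 and XRN1 were sampled in vegetative growth in YPD, in premeiotic medium and, per the design text, after 5 h in SPO, here called meiotic, with 1 library per strain, stage and assay. Ccr4-Not is the complex that shortens poly(A) tails, with Ccr4 and Pop2 as its deadenylase subunits, and Xrn1 is the main cytoplasmic 5′ to 3′ exonuclease. The last 2 experiments used growing YPD cultures, with 1 library per group. A degron-Xrn1 strain was sampled before and 30 min after the degradation of Xrn1 was started with auxin and copper sulphate, beside a wild-type control. A strain with CCR4 under the CUP1 promoter, which copper switches on, was sampled before and 60 min after copper was added, also beside a wild-type control. Whether replicates were separate cultures is not in the labels, and the p-values below may therefore reflect technical spread alone, since they rest on these samples.

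All 5 genes have 1 coding exon in the RefSeq R64 annotation of the S288C genome. IME4 lies at VII:142246-144048 on the plus strand, MUM2 at II:352193-353293 on the minus strand, SLZ1 at XIV:270275-271171 on the minus strand, KAR4 at III:27929-28936 on the plus strand and PHO92 at IV:1223474-1224394 on the minus strand. The whole of IME4 is covered by an antisense RNA gene, RME2, at VII:141898-144120 on the minus strand. No source used here gives the strand setting of the authors' counting, so reads from IME4 and RME2 cannot be told apart in any IME4 value.

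Promoter sequences are shown because the levels of the 5 genes moved together in the results below. Each stretch is read 5′ to 3′ on the strand of its gene in RefSeq R64, so SK1 itself may differ. Matches were sought from 250 bases before to 50 bases after the coding start. They are printed with 28 bases on each side, which can reach beyond that window. Capitals mark GGCGGC, the core of URS1, or GCCGCC where the core lies on the other strand, in IME4, PHO92 and SLZ1. In KAR4 and MUM2 they mark TGAAACA, the pheromone response element bound by Ste12, or TGTTTCA on the other strand.
IME4, VII:141986-142047 (plus strand): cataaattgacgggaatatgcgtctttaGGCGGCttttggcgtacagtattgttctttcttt
PHO92, IV:1224590-1224651 (minus strand): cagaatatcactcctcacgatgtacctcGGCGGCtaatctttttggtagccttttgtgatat
SLZ1, XIV:271273-271334 (minus strand): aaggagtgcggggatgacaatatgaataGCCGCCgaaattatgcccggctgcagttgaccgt
KAR4, III:27756-27863 (plus strand): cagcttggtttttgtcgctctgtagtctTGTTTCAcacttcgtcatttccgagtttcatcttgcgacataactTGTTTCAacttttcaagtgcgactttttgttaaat
MUM2, II:353391-353453 (minus strand): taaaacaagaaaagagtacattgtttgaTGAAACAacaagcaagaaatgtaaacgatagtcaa

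The URS1 core began 232 bases before the coding start of IME4, 229 before that of PHO92 and 135 before that of SLZ1. Over both strands it stood in 308 of 6004 promoters of the same length, or 5.13%, and in 16 of the 24 promoters of a list of early recombination and chromosome axis genes. No GGCGGC was in the windows of MUM2 or KAR4. The pheromone element stood in 449 promoters (7.48%) and in 6 of the 24 on that list. KAR4 held it at 145 and 100 bases before its start and MUM2 at 132. CACAAA, the core of the middle sporulation element bound by Ndt80, stood in 1126 promoters (18.75%) and in 2 of the 24. SLZ1 held it at 74 and PHO92 at 205 bases before the start. CACGTG, bound by Pho4, stood in 174 promoters (2.9%), in 1 of the 24 and in none of the 5 windows. These matches are a description of the letters, not of binding.

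RNA-seq libraries of the sporulation course held 364038 to 3821895 counts and tag libraries 71930 to 314734. The return-to-growth libraries held 132594 to 4689131 RNA counts and 452277 to 1357096 tags, and the shallowest RNA library was replicate 2 before transfer at 7 h. Strain libraries held 178152 to 1596718 RNA counts and 1715150 to 8926553 tags. Levels are given as CPM, the count scaled to a library size adjusted by TMM, edgeR's normalization. CCR4 had 0, 1 and 0 RNA counts in the ccr4 deletion libraries, POP2 had 0 in all pop2 deletion libraries and XRN1 had 2, 1 and 1 in the xrn1 deletion libraries. Summed levels of 12 sporulation markers rose from 294.5 CPM at their lowest to 79100 at their highest over the course, and those of 12 haploid-cell markers lay between 136.3 and 965.1 CPM.

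All 5 genes rose after transfer to SPO, reached their highest mean at 4 to 6 h and were lower again at 9 h. They differed in how far they rose: PHO92 and SLZ1 gained over an order of magnitude, and IME4, MUM2 and KAR4 gained a few-fold. In edgeR's quasi-likelihood F test over all 10 hours, each of the 5 changed, with adjusted p of 3.96e-09 for IME4, 6.2e-09 for MUM2, 1.11e-12 for SLZ1, 5.78e-08 for KAR4 and 9.07e-13 for PHO92. That test also called 94.5% of all genes tested. Because these are bulk samples, more cells with a transcript and more RNA per cell cannot be told apart.

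IME4, the catalytic subunit, stood at 49.5 and 48.6 CPM in the 2 libraries at 0 h, at 77.4 and 108 at 1 h, at 202 and 225 at 4 h, at 193 and 193 at 5 h and at 124 and 107 at 9 h. Both 4 h libraries were above every other library of the course, and both 0 h libraries below. The 4 h mean was 4.35 times the 0 h mean, and the 9 h mean was 54.2% of the highest. With the hours ranked by their mean, 4 of 9 neighbouring pairs overlapped in their replicates, all of them among 7, 8, 2, 9 and 1 h.

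MUM2 stood at 101 and 109 CPM at 0 h, at 153 and 166 at 1 h, at 332 and 336 at 4 h, at 334 and 371 at 5 h and at 210 and 173 at 9 h. The 4 and 5 h libraries overlapped, and the libraries of 6 to 9 h lay between them and the 0 h libraries. The highest mean, at 5 h, was 3.35 times that at 0 h.

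SLZ1 stood at 96.0 and 111 CPM at 0 h, at 509 and 511 at 1 h, at 1256 and 1343 at 3 h, at 2289 and 2811 at 5 h, at 2638 and 2824 at 6 h and at 1413 and 1262 at 9 h. Replicates separated nearly every hour: of the 9 neighbouring pairs of ranked hours, those of 6 and 5 h and of 9 and 3 h overlapped. The 6 h mean was 26.4 times that at 0 h.

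KAR4 stood at 47.5 and 39.3 CPM at 0 h, at 83.4 and 70.7 at 1 h, at 135 and 149 at 4 h, at 144 and 146 at 5 h and at 38.6 and 57.1 at 9 h. Its 9 h libraries lay on both sides of the 0 h libraries, the only such return among the 5 genes. The 5 h mean was 3.35 times that at 0 h, and 7 of 9 neighbouring pairs of ranked hours overlapped.

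PHO92, the reader, stood at 10.7 and 11.4 CPM at 0 h, at 216 and 180 at 1 h, at 427 and 389 at 3 h, at 632 and 662 at 5 h, at 630 and 810 at 6 h and at 306 and 266 at 9 h. Every library from 1 h on was far above both 0 h libraries. The 6 h mean was 65.3 times that at 0 h and the 9 h mean 39.8% of the highest.

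**Figure D1:**
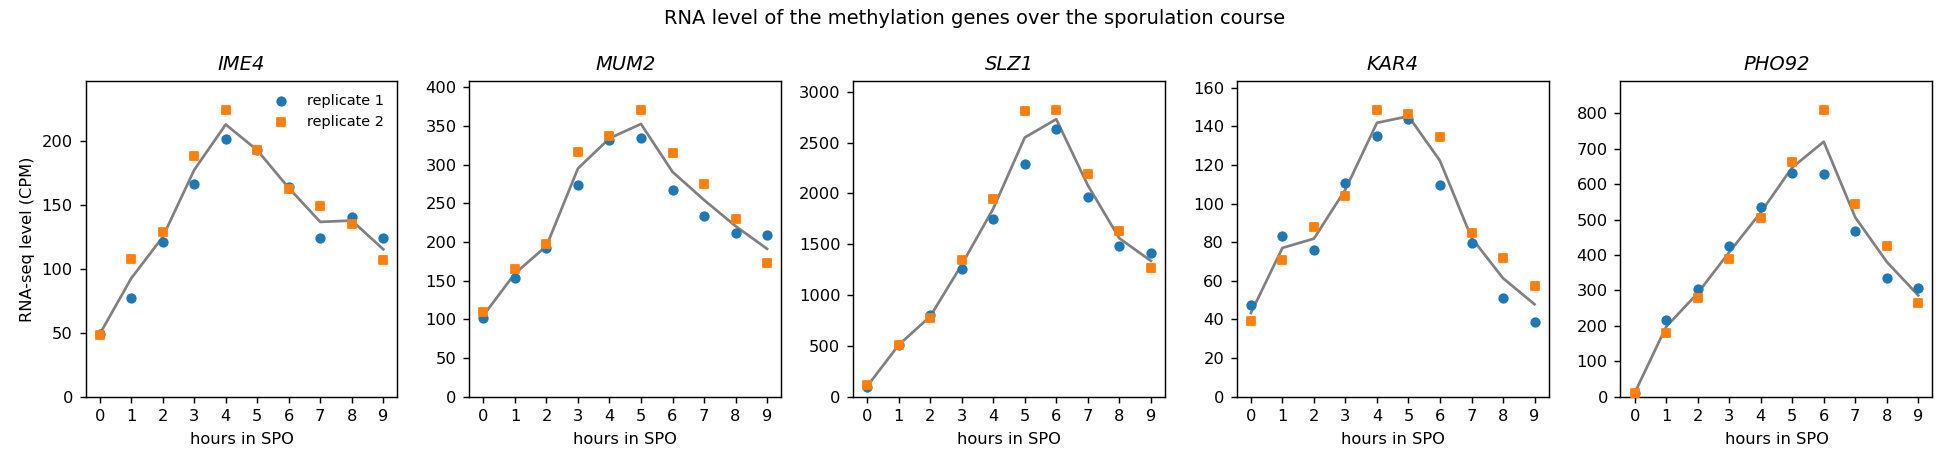
RNA-seq level (CPM of TMM-scaled libraries, linear axes that differ between panels) of the 5 genes against hours in SPO, 1 point per library and a line through the mean of 2 replicates. IME4 is highest at 4 h, MUM2 and KAR4 at 5 h, SLZ1 and PHO92 at 6 h, and KAR4 at 9 h is back among its 0 h values.

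By edgeR's quasi-likelihood test, all 5 genes were already higher at 1 h, when 28.4% of genes were called higher. The log2 changes were 0.94 for IME4, 0.60 for MUM2, 2.30 for SLZ1, 0.81 for KAR4 and 4.16 for PHO92. All 5 stayed higher at 3 h, when 29.9% of genes were. At 5 h, with 30.0% of genes higher, the log2 changes with their standard errors (SE) were 1.98 (SE 0.15, adjusted p = 1.19e-09) for IME4 and 1.74 (SE 0.13, adjusted p = 1.43e-09) for MUM2. They were 4.62 (SE 0.18, adjusted p = 1.84e-13) for SLZ1, 1.74 (SE 0.17, adjusted p = 4.56e-08) for KAR4 and 5.87 (SE 0.21, adjusted p = 6.01e-14) for PHO92.

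At 9 h, 4 of the 5 were still above 0 h, beside 28.5% of genes. Their log2 differences were 1.21 for IME4, 0.84 for MUM2, 3.69 for SLZ1 and 4.68 for PHO92. KAR4 differed by 0.21 (SE 0.25, edgeR adjusted p = 0.482), a value that turned to -0.18 without replicate 2 of 9 h. All 5 fell from 5 to 9 h, as did 26.0% of genes, and KAR4 fell by the largest amount of the 5, a log2 change of -1.53 against -0.76 for IME4, -0.90 for MUM2, -0.93 for SLZ1 and -1.19 for PHO92. Whether KAR4's fall differed from theirs was not tested.

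Over the 10 hourly means, MUM2 followed IME4 with a Pearson r of 0.979 and SLZ1 followed PHO92 with r = 0.968 (log2 CPM). For KAR4, r was 0.870 to MUM2, 0.831 to IME4, 0.708 to PHO92 and 0.668 to SLZ1. The median r to the 24 early genes was 0.964 for IME4, 0.921 for MUM2, 0.911 for SLZ1, 0.803 for KAR4 and 0.940 for PHO92, against medians near 0 over all 5862 other genes compared. All points share the same libraries, so these values describe the course.

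Among the genes with the most similar course, IME4 had SPO22 (r = 0.992), a gene of synaptonemal complex assembly, YIL025C (0.992) and GDT1 (0.989). MUM2 had CST9 (0.991) and SPO22 (0.990), both of synapsis and crossing over, and SGS1 (0.985), a DNA helicase. SLZ1 had POP4 (0.991), DMA2 (0.990) and NDC80 (0.989), of which NDC80 encodes a kinetochore protein. KAR4 had ALY2 (0.993), YKL162C-A (0.986) and PRE4 (0.980), a proteasome subunit. PHO92 had IME2 (0.995), the meiotic protein kinase, CUE4 (0.990) and HED1 (0.990). These lists depend on the measure: ranked by Spearman's rho, 0 of the 3 genes stayed for IME4, MUM2, KAR4 and PHO92 and 1 for SLZ1. Over all 20 libraries 1 of 3 stayed for IME4 and 2 of 3 for each of the others.

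Of 2 further subunits of the methyltransferase, VIR1 rose at 1 and 5 h, and DYN2, a dynein light chain, rose at 1 h. VIR1 changed by 1.67 (log2, edgeR adjusted p = 5.5e-10) at 1 h, by 1.49 at 5 h (adjusted p = 2.75e-09) and by 0.06 at 9 h (adjusted p = 0.711). DYN2 rose by 0.50 at 1 h (edgeR adjusted p = 0.00897), and its values at 5 h (-0.06) and 9 h (0.38) did not pass the test. Among entry regulators, IME1, the master regulator, stood 0.26 above 0 h at 1 h (edgeR adjusted p = 0.251), rose by 0.77 by 5 h (adjusted p = 0.00154) and was lower by 9 h, at -0.56 (adjusted p = 0.0172). IME2 rose by 5.54 by 5 h and UME6 by 1.94, while RME1, a repressor of IME1, was at 0.75 (edgeR adjusted p = 0.14).

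All 24 early recombination and axis genes rose by 5 h, with a median log2 change of 5.18, from 1.65 in REC107 to 6.32 in SPO11. The median over all genes was -0.11. Of 10 entry regulators, 7 rose and 1 fell, with a median of 0.73. Of 12 pheromone response and karyogamy genes, the class in which Kar4 is known as an activator, 7 rose and 2 fell, from FIG1 at 5.81 to AGA1 at -0.90. Beside these, 7 of 12 haploid-cell markers rose and 1 fell at 5 h. At 0 h, MFA1 and MFA2 were at 0 in replicate 2, and 0 of the 12 markers were at 0 in replicate 1. The markers' highest levels in the course ran from 13.3 CPM for MF(ALPHA)1 to 384 for STE18. The part of haploid cells in the KAR4 result was not tested. Of 7 phosphate genes, 2 rose and 2 fell, from PHO2 at 0.84 to PHO84 at -4.11.

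Poly(A) tags, at lower depth, were also higher at 5 h for the genes with most tags. SLZ1 had 55.8 and 75.6 tag CPM at 0 h and 1861 and 1829 at 5 h, and PHO92 had 1 tag in 1 library and 0 in the other at 0 h against 33 and 26 tags at 5 h. Neither gene's 2 groups overlapped. MUM2 went from 167 and 104 tag CPM to 214 and 367, also without overlap.

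By edgeR's test on tags, 3 of the 5 genes were higher at 5 h, beside 18.7% of genes. SLZ1 rose by 4.74 (log2, SE 0.37, adjusted p = 8.54e-13), PHO92 by 5.27 (SE 1.04, adjusted p = 7.92e-05) and MUM2 by 1.2 (SE 0.40, adjusted p = 0.0165). The MUM2 call ended without replicate 2 of 0 h (adjusted p = 0.182), without replicate 2 of 5 h (0.289) and in DESeq2 (0.0675). IME4 (1.74, edgeR adjusted p = 0.194) and KAR4 (1.46, adjusted p = 0.0737) did not pass, and IME4 had 2, 1, 4 and 11 tags in these 4 libraries. At 9 h, 2 genes were higher than at 0 h, beside 17.0% of genes: SLZ1 by 4.03 (adjusted p = 2.29e-11) and PHO92 by 4.14 (adjusted p = 0.00688, but 0.165 without replicate 2 of 0 h).

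Back in rich medium, all 5 transcripts fell within 5 min, from either starting hour. After 20 min the starting hour made a difference: from 1 h, SLZ1 was below 2% of its level and PHO92 had 0 RNA-seq counts but 7 and 6 poly(A) tags, and from 7 h the levels stood above those at 5 min. At 5 min from 1 h, IME4 stood at 16.2% and 18.3% and SLZ1 at 17.0% and 16.5% of the mean before transfer.

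IME4 stood at 97.2 and 90.6 CPM before transfer at 1 h, at 15.2 and 17.2 after 5 min and at 12.2 and 12.4 after 20 min. From 7 h it went from 100 and 111 CPM to 57.9 and 49.5 after 5 min and to 82.7 and 66.2 after 20 min. In both series the groups before transfer did not overlap with those after it.

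MUM2 stood at 156 and 138 CPM before transfer at 1 h, at 54.0 and 84.3 after 5 min and at 33.3 and 43.0 after 20 min. From 7 h it went from 186 and 262 CPM to 109 and 90.8 and then to 166 and 143. The 20 min libraries from 1 h were the lowest of the experiment.

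SLZ1 stood at 514 and 498 CPM before transfer at 1 h, at 85.8 and 83.7 after 5 min and at 9.42 and 7.58 after 20 min, the last being 1.86% and 1.5% of the mean before. From 7 h it went from 1656 and 1732 CPM to 263 and 286, or 15.6% and 16.9%, and then to 1024 and 861, or 60.5% and 50.8%. Loss at 5 min was thus of like size from both hours, and the 20 min libraries stood on opposite sides of it.

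KAR4 stood at 70.3 and 64.1 CPM before transfer at 1 h, at 21.5 and 25 after 5 min and at 24.9 and 25.3 after 20 min. From 7 h it went from 84.3 and 55.6 CPM to 26.1 and 27.5 and then to 42.7 and 42.4. From 1 h its libraries at 5 and 20 min overlapped.

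PHO92 stood at 182 and 154 CPM before transfer at 1 h, at 54.7 and 47.1 after 5 min, and had 0 counts in both libraries at 20 min. From 7 h it went from 400 and 501 CPM to 66.6 and 96.3 and then to 222 and 193. A floor of 3 counts over the 20 min libraries from 1 h would be 0.559 CPM. By RNA-seq counts PHO92 was thus at least 301-fold lower there than before transfer. The fall was smaller in poly(A) tags, at 16.4-fold.

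**Figure D2:**
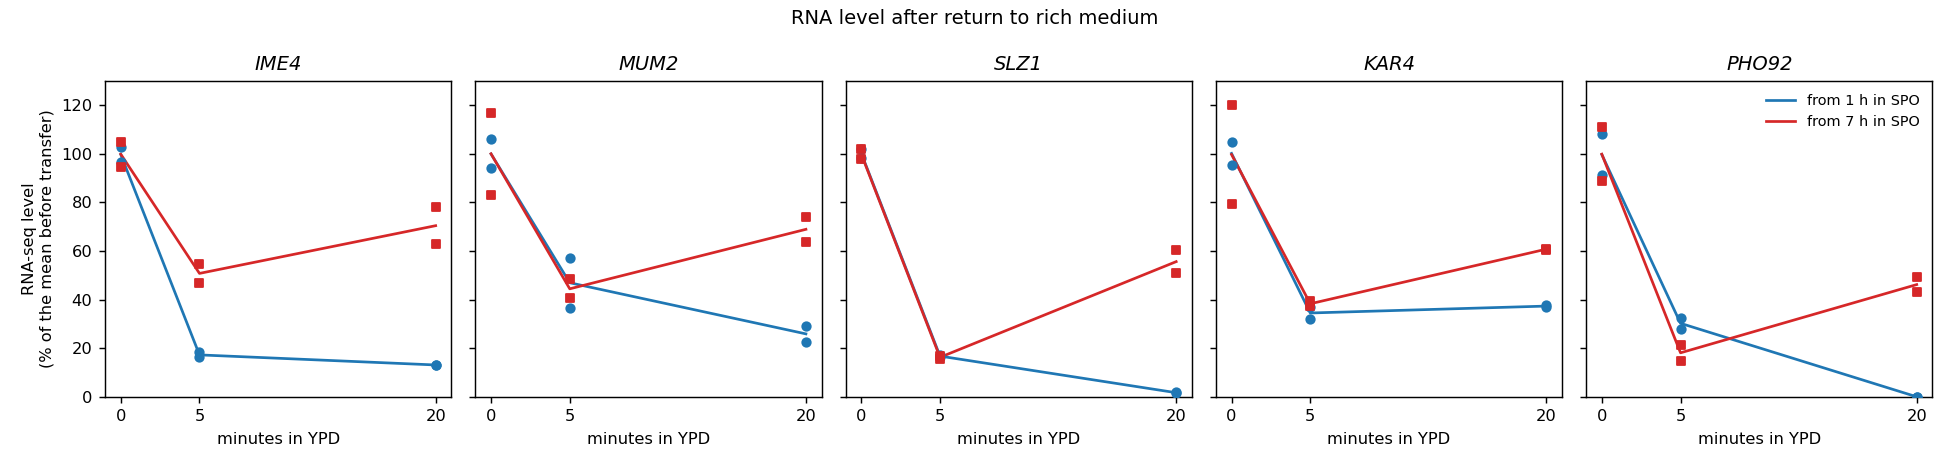
RNA-seq level as a percentage of the mean before transfer, against minutes in YPD, for cells moved from 1 h (circles, blue) and from 7 h (squares, red) in SPO, with 1 point per library and a line through the mean of 2 replicates. At 20 min SLZ1 from 1 h stands at 1.86% and 1.5% and PHO92 at 0 counts, while from 7 h they stand at 60.5% and 50.8% and at 49.4% and 43.0%.

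All 5 genes were lower at 5 min from 1 h by edgeR's test, in which 46.7% of genes were called lower and the median over all genes was -0.43 (log2). Their log2 changes were -2.52 for IME4, -1.08 for MUM2, -2.58 for SLZ1, -1.53 for KAR4 and -1.74 for PHO92. At 20 min from 1 h all 5 were again lower, beside 42.7% of genes. IME4 changed by -2.93 (SE 0.20, adjusted p = 1.5e-16), MUM2 by -1.92 (SE 0.19, adjusted p = 3.38e-12), SLZ1 by -5.92 (SE 0.21, adjusted p = 3.67e-26), which is 60.7-fold, and KAR4 by -1.42 (SE 0.19, adjusted p = 1.64e-08). For PHO92 the adjusted p was 9.66e-24. With library sizes alone in place of TMM, the all-gene median at 20 min moved from -0.10 to -0.77 and the share of called genes that were higher from 47.3% to 32.6%, so these falls are relative to the scaling used.

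All 5 were also lower at 5 min from 7 h, beside 23.1% of genes, with log2 changes of -0.94 for IME4, -1.04 for MUM2, -2.62 for SLZ1, -1.56 for KAR4 and -2.36 for PHO92. Without replicate 1 before transfer at 7 h, which leaves the shallowest library of the experiment, IME4 (edgeR adjusted p = 0.0742) and KAR4 (0.238) did not pass. At 20 min from 7 h, 3 of 5 were lower than before, beside 11.2% of genes. SLZ1 was at -0.83 (SE 0.15, adjusted p = 2.45e-05), PHO92 at -1.02 (SE 0.18, adjusted p = 1.64e-05) and KAR4 at -0.90 (SE 0.26, adjusted p = 0.00664). IME4 (-0.40, edgeR adjusted p = 0.197) and MUM2 (-0.36, adjusted p = 0.211) did not pass. The KAR4 call ended without replicate 1 before transfer (-0.38, adjusted p = 0.747), without replicate 1 at 20 min (0.0928) and in DESeq2 (0.071).

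The change at 20 min differed between the 2 starting hours for 4 of the 5 genes in edgeR's interaction test, which called 32.4% of genes in that direction. The fall from 1 h exceeded that from 7 h by 2.53 (log2, SE 0.31, adjusted p = 2.64e-09) for IME4, 1.56 (SE 0.28, adjusted p = 7.87e-06) for MUM2 and 5.09 (SE 0.27, adjusted p = 1.24e-19) for SLZ1. For PHO92 it was at least 139 times larger by RNA-seq counts (adjusted p = 2.14e-17), with the floor of 3 counts. KAR4 differed by 0.52 (SE 0.33, adjusted p = 0.169), and by 1.17 (adjusted p = 0.00252) with library sizes alone.

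The step from 5 to 20 min, a contrast chosen after the values were seen, was called in opposite directions for MUM2, SLZ1 and PHO92. From 1 h, 3 of 5 genes fell further in RNA-seq, beside 27.0% of genes. MUM2 changed by -0.84 (log2, edgeR adjusted p = 0.000317) and SLZ1 by -3.35 (adjusted p = 5.19e-16). PHO92 was at least 91.1-fold lower (adjusted p = 3.73e-17), against 9.39-fold in tags. IME4 (-0.40, edgeR adjusted p = 0.194) and KAR4 (0.11, adjusted p = 0.694) did not pass, though with library sizes alone both were called lower, at -1.14 and -0.63. The MUM2 call ended without replicate 2 at 5 min (adjusted p = 0.104). From 7 h, 3 genes rose, beside 16.1% of genes: MUM2 by 0.68 (edgeR adjusted p = 0.00997), SLZ1 by 1.78 (adjusted p = 1.39e-11) and PHO92 by 1.34 (adjusted p = 6.54e-07). The MUM2 rise ended without replicate 2 at 5 min (0.136) and without replicate 1 at 20 min (0.239). IME4 (0.55, adjusted p = 0.0576) and KAR4 (0.66, adjusted p = 0.0789) passed with RLE normalization, and IME4 also without replicate 2 at 20 min (0.0464).

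Before transfer, 3 genes stood higher at 7 h than at 1 h, beside 29.2% of genes. SLZ1 differed by 1.74 (log2, SE 0.15, edgeR adjusted p = 5.82e-13), PHO92 by 1.34 (SE 0.17, adjusted p = 1.15e-08) and MUM2 by 0.46 (SE 0.20, adjusted p = 0.0428). The MUM2 call ended without replicate 2 of 1 h (0.155), without replicate 1 of 7 h (0.0536), without replicate 2 of 7 h (0.167), in DESeq2 (0.0675) and with library sizes alone (0.756). IME4 (0.11, edgeR adjusted p = 0.636) and KAR4 (0.24, adjusted p = 0.352) did not pass.

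The wider program moved in the same experiment. From 1 h, all 23 early genes tested fell by 20 min, with a median log2 change of -4.28 and the smallest fall in ZIP2 (-1.29), against an all-gene median of -0.10. From 7 h, 20 of 23 fell, with a median of -1.34. VIR1 fell by 1.88 from 1 h and by 1.43 from 7 h (log2, edgeR adjusted p = 6.17e-15 and 3.35e-06), and DYN2 by 0.84 from 1 h (adjusted p = 0.000189), with -0.13 from 7 h (adjusted p = 0.785). IME1 went from 871 and 642 CPM to 2.77 and 2.81 from 1 h, a log2 change of -8.04, and from 637 and 596 to 210 and 124.5 from 7 h, a change of -1.81. IME2 changed by -6.25 and -0.98, and UME6 by -0.88 and 0.20, the last with an edgeR adjusted p of 0.467. RME1 had 32 and 28 counts before transfer at 1 h and 0 in both libraries at 20 min.

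Beside these results, the summed level of sporulation markers went from 2486 and 2014 CPM to 115 and 136 from 1 h, and from 56800 and 52420 to 53270 and 56400 from 7 h. The sum does not stand for each of the 12 markers. By edgeR's test 7 were lower and 1 higher at 20 min from 1 h, with a median log2 change of -1.38. At 20 min from 7 h, 7 were lower and 2 higher, with a median of -0.56. At 5 min from 7 h, 10 were lower and 2 higher. Over 5672 genes, the 20 min profile from 7 h ranked genes much like that before transfer (Spearman rho 0.807), and that from 1 h did not (0.03). The part of these differences between the cultures in the gene results was not tested.

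In poly(A) tags, SLZ1 went from 892 and 456 CPM before transfer at 1 h to 344 and 261 after 5 min and 20.1 and 15.6 after 20 min. PHO92 went from 161 and 76 tags to 74 and 85 and then to 7 and 6 tags, in contrast to its 0 RNA-seq counts. For both genes the 20 min libraries were far below all others from that hour.

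By edgeR's test 2 of 5 genes were lower in tags at 20 min from 1 h, beside 28.2% of genes: SLZ1 at -5.20 (log2, SE 0.46, adjusted p = 2.78e-12) and PHO92 at -4.03 (SE 0.49, adjusted p = 7.06e-09). With library sizes alone 4 were. MUM2 (-0.99, edgeR adjusted p = 0.11) passed without replicate 2 before transfer (0.0194) or replicate 2 at 20 min (0.0337). KAR4 (-1.12, adjusted p = 0.195) passed without replicate 1 at 20 min (0.00306), which leaves a 20 min library with 0 KAR4 tags. At 20 min from 7 h 0 of the 5 passed in edgeR, 0 had an unadjusted p under 0.05, and of the 4 that DESeq2 gave a p for, 0 passed there. PHO92 tags went from 227 and 349 CPM to 67.8 and 125 after 5 min and to 481 and 390 after 20 min, so both 20 min libraries were above both libraries before transfer, by 0.60 (log2, edgeR adjusted p = 0.367), where RNA-seq was lower. From 5 to 20 min, 2 genes rose in tags, beside 3.44% of genes: PHO92 by 2.19 (SE 0.38, adjusted p = 4.49e-05) and SLZ1 by 1.52 (SE 0.35, adjusted p = 0.00235, but 0.058 without replicate 2 at 5 min).

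Poly(A) tails could be followed best for SLZ1, the member with the most tags. A tail value is the mean length over a gene's tags in 1 library, and tests were restricted to genes that reached 20 tags in each of the libraries compared. SLZ1 tails averaged 25.5 and 30.5 nt at 5 h and 20.0 and 20.9 nt at 9 h, with no overlap. That is a change of -7.60 nt (SE 2.1, limma adjusted p = 0.0407), beside a median of -4.06 nt over 568 genes, of which 11.4% were called shorter. The call ended when each library was centred on its median (adjusted p = 0.138) and without replicate 1 of 5 h (0.147), replicate 2 of 5 h (0.38) or replicate 1 of 9 h (0.238). Median tails were longer in replicate 2 than in replicate 1 at 10 of 10 hours, by 0.95 to 5.27 nt, and with a replicate block the SLZ1 change stayed at -7.60 nt (limma adjusted p = 5.75e-08). That p-value assumes that replicate numbers pair the samples, which the sources used here do not say. It rests on 2 libraries an hour and does not undo the dependence on single libraries.

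At 5 min after transfer from 1 h, SLZ1 tails averaged 17.0 and 17.9 nt against 23.3 and 23.7 nt before, again without overlap. This contrast was chosen after its values were seen. The change was -6.00 nt (SE 1.64, limma adjusted p = 0.00952), beside a median of -0.74 nt over 2046 genes, of which 7.67% were called shorter. The call ended without replicate 1 (adjusted p = 0.089) or 2 (0.117) before transfer or replicate 1 at 5 min (0.0591). PHO92 tails, at 22.3 and 24.4 nt before and 18.5 and 20.7 nt at 5 min, changed by -3.77 nt (limma adjusted p = 0.315).

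From 7 h no member changed in tail length by limma's test at 5 min. SLZ1 was at -2.34 nt (adjusted p = 0.995), MUM2 at 4.78 (0.993) and PHO92 at 2.09 (0.995). At 20 min from 7 h, SLZ1 was at -5.29 nt (adjusted p = 0.449), PHO92 at -3.81 (0.56) and MUM2 at 2.90 (0.773), with unadjusted p = 0.0436 for SLZ1 by limma. Before transfer, SLZ1 tails were 23.3 and 23.7 nt at 1 h and 26.4 and 29.7 nt at 7 h, a difference of 4.55 nt (limma adjusted p = 0.18) that passed after centring, at 6.66 nt (0.00366). IME4 and KAR4 had too few tags for any of these tests, and no member had enough at 0 h or at 20 min from 1 h.

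**Figure D3:**
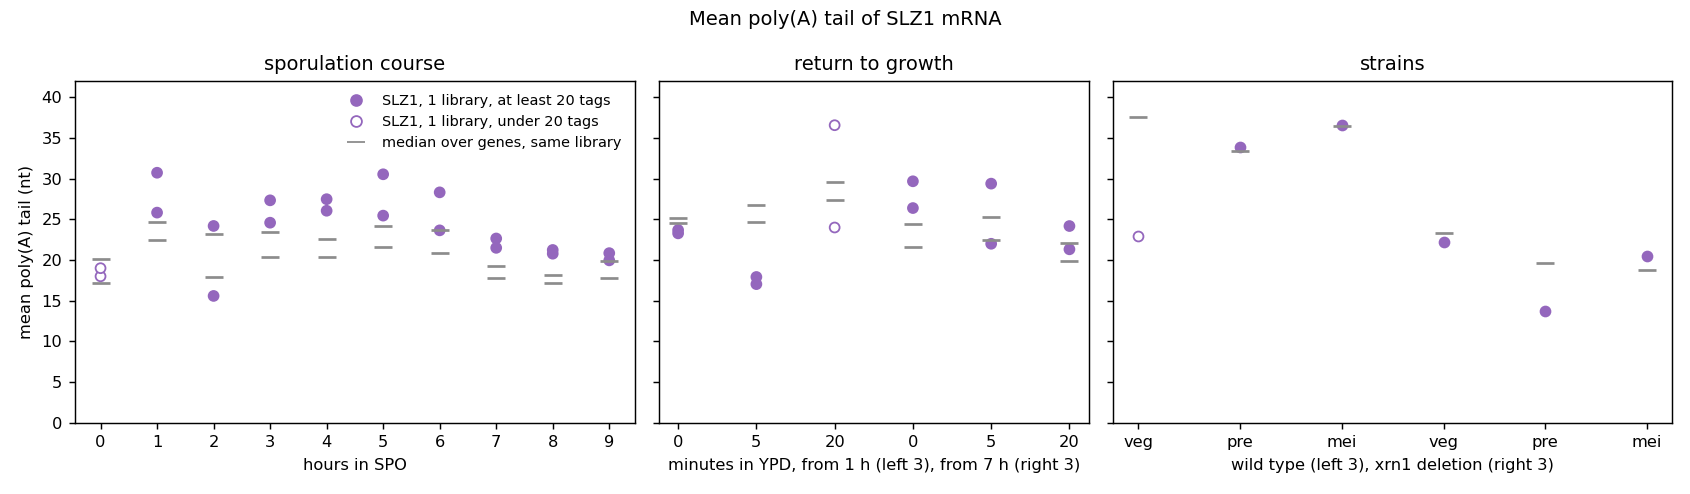
Mean poly(A) tail of SLZ1 mRNA in nucleotides (vertical axis) by hour in SPO, by minute after transfer to YPD from 1 h and 7 h, and by stage in wild type and the xrn1 deletion, with 1 filled point per library of at least 20 tags, open points below that, and grey dashes for the median over genes in the same library. SLZ1 falls from 23.3 and 23.7 nt to 17.0 and 17.9 nt at 5 min from 1 h while the medians stay between 24.6 and 26.8 nt, and meiotic SLZ1 is at 20.5 nt in the xrn1 deletion against 36.7 nt in wild type.

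In the strain experiment every group is 1 library, so differences have no replicate check. A gene is called here where it differs past 2-fold (log2 CPM with a prior count of 2) and averages at least 10 counts, and ratios carry exact 95% intervals that cover counting error only. In wild type all 5 genes were higher in the meiotic than in the premeiotic library, beside 27.9% of genes. SLZ1 had 1, 18 and 1642 counts in the vegetative, premeiotic and meiotic libraries and PHO92 0, 1 and 310. IME4 had 25, 7 and 73, MUM2 27, 34 and 131, and KAR4 21, 7 and 73. SLZ1 was 56.4 times higher in the meiotic than the premeiotic library (interval 35.6 to 95.4), IME4 and KAR4 each 6.45 times and MUM2 2.38 times. Against the vegetative library all 5 were higher too, beside 29.3% of genes. In libraries fragmented before ligation, all 5 were again higher in the meiotic than in the vegetative library, beside 33.4% of genes, with 97 against 9 counts for IME4, 170 against 3 for MUM2, 878 against 1 for SLZ1, 60 against 3 for KAR4 and 415 against 1 for PHO92.

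In the meiotic libraries of the 3 deletion strains the methylation genes stood below wild type, and most so for SLZ1 and PHO92. SLZ1 was at 3833 CPM in wild type, 58.1 in the ccr4 deletion, 115 in the pop2 deletion and 769 in the xrn1 deletion. PHO92 was at 724 CPM in wild type, 26.8 in the ccr4 deletion, 58.8 in the pop2 deletion and 95.1 in the xrn1 deletion. Wild type was the highest for both genes and the ccr4 deletion the lowest. IME4 was at 170, 33.5, 46.4 and 64.8 CPM in the same order of strains, MUM2 at 306, 71.5, 95.9 and 156, and KAR4 at 170, 53.6, 108 and 47.5. The deletion strains cannot be ranked for IME4, MUM2 and KAR4, since their values rest on few counts: IME4 had 15 counts in each deletion library, MUM2 32, 31 and 36, and KAR4 24, 35 and 11.

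In the ccr4 deletion all 5 were lower, beside 22.1% of genes. Wild type was 66 times higher for SLZ1 (interval 44.9 to 101), 27 times for PHO92 (15.2 to 52.8), 5.09 times for IME4 (2.89 to 9.55), 4.28 times for MUM2 (2.89 to 6.51) and 3.18 times for KAR4 (1.98 to 5.27). In the pop2 deletion 4 were lower, beside 21.4% of genes, with ratios of 33.5 for SLZ1, 12.3 for PHO92, 3.67 for IME4 and 3.19 for MUM2. KAR4 was not called there, at 1.57 (1.04 to 2.43). In the xrn1 deletion 4 were lower, beside 22.4% of genes, with ratios of 4.98 for SLZ1 (4.27 to 5.85), 7.61 for PHO92 (4.94 to 12.3), 3.58 for KAR4 and 2.63 for IME4. MUM2 was not called there, at 1.97 (1.35 to 2.93). With library sizes alone the xrn1 differences were smaller, at -1.72 (log2) for SLZ1, -2.29 for PHO92 and -0.38 for MUM2.

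**Figure D4:**
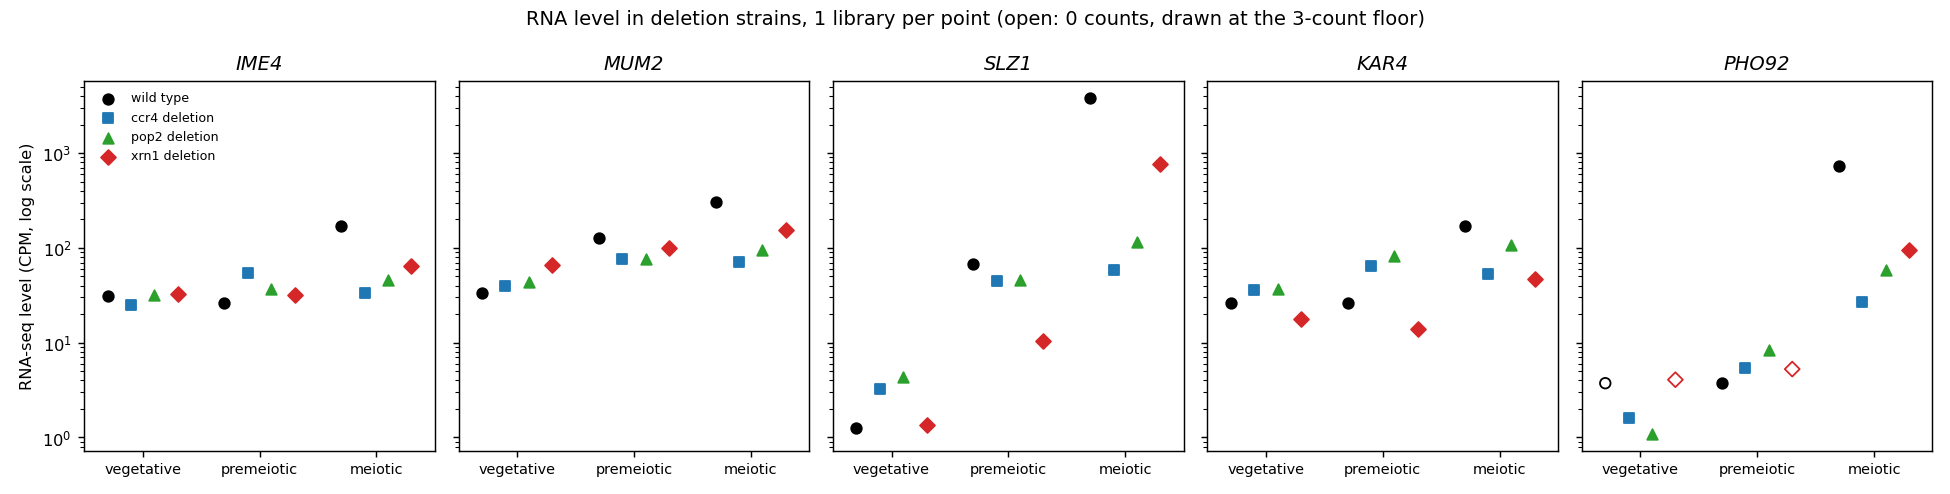
RNA-seq level (CPM, log axis) of the 5 genes in wild type and 3 deletion strains at 3 stages, 1 library per point, with open points for 0 counts drawn at a floor of 3 counts. In the meiotic libraries wild type lies above every deletion strain for all 5 genes, with SLZ1 at 3833 CPM against 58.1, 115 and 769.

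Other meiotic transcripts stood lower in the same libraries. Of 23 early genes with enough counts, 23 were past 2-fold lower in the ccr4 deletion (median log2 -5.15), 23 in the pop2 deletion (-3.83) and 19 in the xrn1 deletion (-1.76). The summed sporulation markers were at 36410 CPM in wild type, 149.7 in the ccr4 deletion, 393.1 in the pop2 deletion and 1370 in the xrn1 deletion. How far each culture had gone into sporulation and the decay defect itself cannot be told apart in these libraries. IME1 was at 1527 CPM in wild type, 594 in the ccr4 deletion, 1058 in the pop2 deletion and 774 in the xrn1 deletion. Of those, the ccr4 deletion was past 2-fold lower. VIR1 was past 2-fold lower in the ccr4 deletion, at 87.1 against 210 CPM, and not in the others, and DYN2 was so in the xrn1 deletion, at 38.9 against 98.0.

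Before meiosis fewer members were past 2-fold. KAR4 was past 2-fold higher in the premeiotic libraries of the ccr4 deletion (36 counts against 7, ratio 2.45 with interval 1.08 to 6.52), beside 19.2% of genes, and of the pop2 deletion (49 against 7, ratio 3.11, 1.40 to 8.15), beside 18.9%. In tags KAR4 was not past 2-fold there, at 34.4 and 35.7 tag CPM against 22.1 in wild type. SLZ1 was lower in the premeiotic xrn1 deletion, with 6 counts against 18 and a ratio of 6.45 (2.45 to 19.8) in favour of wild type, beside 14.3% of genes. In vegetative RNA-seq libraries 0 members were called, beside 10.3% of genes past 2-fold in either direction in the ccr4 deletion, 18.0% in the pop2 deletion and 21.5% in the xrn1 deletion. In vegetative tags, KAR4 was higher in the pop2 deletion, at 32.8 against 14.6 tag CPM, beside 11.5% of genes. SLZ1 was also past 2-fold there with 19 against 3 tags (3.94 against 0.81 tag CPM). In the vegetative xrn1 deletion SLZ1 was past 2-fold with 23 against 3 tags (3.39 against 0.81 tag CPM), beside 16.0%. SLZ1 reached the minimum mean of 10 counts through the deletion libraries alone, so these 2 calls cannot decide whether it rose. In vegetative RNA-seq it had 1 count in wild type, 4 in the pop2 deletion and 1 in the xrn1 deletion. In premeiotic tags SLZ1 was lower in the ccr4 deletion, at 22.3 against 46.3 tag CPM, beside 16.6% of genes, and in the xrn1 deletion, at 7.66 tag CPM, beside 16.0%. In the libraries fragmented first, MUM2 was higher in the vegetative xrn1 deletion than in wild type, with 26 against 3 counts and a ratio of 5.01 (1.53 to 25.8), beside 12.7% of genes.

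Tags gave a like picture in the meiotic libraries. In the ccr4 deletion 4 of 5 were lower, beside 21.1% of genes, in the pop2 deletion 4, beside 19.5%, and in the xrn1 deletion 4, beside 17.9%. KAR4 was the member not called in the first 2 and IME4 the one in the last. With library sizes alone the xrn1 tag differences were smaller. They were -2.48 (log2) for SLZ1, -1.41 for PHO92 and -1.03 for MUM2. KAR4, at -0.38, was then not past 2-fold, and IME4 was at 0.08. SLZ1 was at 2314 tag CPM in wild type (5076 tags), 24.7 in the ccr4 deletion (100 tags), 111 in the pop2 deletion (235 tags) and 241 in the xrn1 deletion (1833 tags). PHO92 was at 34.6, 0.493, 3.30 and 7.36 tag CPM, from 76, 2, 7 and 56 tags. Wild type was highest for both, and the xrn1 library the next highest.

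In the xrn1 deletion, meiotic tails were 20.5 nt against 36.7 in wild type for SLZ1, 16.1 against 33.5 for PHO92, 21.9 against 35.2 for IME4, 22.5 against 36.8 for MUM2 and 18.3 against 31.9 for KAR4. All 5 were shorter, and so was the median gene, by -17.55 nt over 5111 genes. In vegetative xrn1 cells MUM2 tails were 23.1 against 47.4 nt, a change of -24.27 nt that was below that of all but 6.89% of genes. IME4 and KAR4 changed there by -17.38 and -17.89 nt, beside a median of -14.67 nt.

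In the ccr4 deletion, vegetative tails were longer, at 55.0 against 41.6 nt for IME4, 54.3 against 47.4 for MUM2 and 50.4 against 35.1 for KAR4, beside a median difference of 11.26 nt. In the meiotic ccr4 library the median difference was 0.03 nt, and SLZ1 tails were shorter, at 27.3 nt over 100 tags against 36.7 nt, a difference of -9.38 nt below all but 5.38% of genes. In premeiotic cells SLZ1 tails were longer than in wild type in the ccr4 deletion (48.1 against 33.9 nt) and in the pop2 deletion (49.5 nt). The pop2 difference of 15.52 nt was above that of 90.6% of genes. SLZ1 tails were shorter in the xrn1 deletion (13.7 nt), by a difference of -20.25 nt below that of all but 10.4% of genes.

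In growing cells with degron-Xrn1, MUM2 tails went from 41.0 to 21.2 nt in 30 min, KAR4 tails from 35.9 to 18.9 nt and IME4 tails from 31.3 to 20.6 nt. Of 4747 genes, 98.1% were shorter, by a median of -11.68 nt, and MUM2 fell by more than all but 9.61% of them. In RNA-seq 1 member was past 2-fold higher after 30 min, beside 10.5% of genes: SLZ1, with 27 counts against 0. The 30 min library is much deeper: SLZ1 was at 5.07 CPM there, 3 counts in the earlier library would be 2.36 CPM, the control was at 3.36 CPM, and SLZ1 tags stood at 1.1 CPM before and 0.849 after. IME4 was at 1.95 (1.19 to 3.37) and MUM2 at 1.61 (1.12 to 2.36). KAR4 did not rise in RNA-seq, at 23.6 CPM before and 20.8 after, and PHO92 had 0 counts before and 1 after. In tags MUM2 (269 against 65 tags, 2.12 times) and KAR4 (101 against 25, 2.07 times) were past 2-fold higher, beside 11.4% of genes. IME4 did not rise in tags, at 5.79 tag CPM before and 4.53 after. XRN1 itself was at 128 CPM before and 122 after, which does not check a degron, since it removes the protein.

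After induction of Ccr4, CCR4 went from 185 to 882 RNA counts. No member was called in RNA-seq, beside 4.99% of genes past 2-fold in either direction, with IME4 at 1.44 (0.913 to 2.29), MUM2 at 0.979 (0.648 to 1.48) and KAR4 at 1.28 (0.717 to 2.30). In tags KAR4 was past 2-fold higher with 20 tags against 0, beside 5.37% of genes, at 11.4 tag CPM against 5.75 in the control (4 tags). KAR4 reached the minimum mean of 10 counts through the 60 min library alone, so this call cannot decide whether it rose. That library was also the deeper one, with 1494132 tags against 791068. SLZ1 had 0 to 6 RNA counts and PHO92 0 or 1 in every library of this experiment.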

How the data were processed

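RNA-seq and poly(A) tag counts per gene, whole numbers not normalized, were deposited by the authors, with a score per gene and library, the tail length in nucleotides averaged over that gene's tags. Per the submitters' processing notes, STAR 2.5.3a, bedtools 2.26.0 and edgeR were used with build sacCer3. Per the labels' protocols, RNA-seq libraries were ligated at the 3′ end, depleted of ribosomal RNA and then fragmented, tag libraries were selected for poly(A), and 3 libraries were fragmented first. No source used here gives the strand setting or any use of molecular identifiers. Every tail value times its tag count was whole (100% within 0.001), so tails are plain means over tags.

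The 5 members, the gene lists and the tests were chosen with earlier results of these data known. The step from 5 to 20 min and the tails at 5 min were added after the values were seen. Replicated groups were fitted by experiment with edgeR 4.0.16 (TMM, filterByExpr, quasi-likelihood test) in R 4.3.3, with Benjamini-Hochberg adjustment over all genes tested and a threshold of 0.05. Tails were tested with limma 3.58.1 among genes of at least 20 tags. Both steps were tested on simulated data. Single libraries were compared at 2-fold, with a prior count of 2, a mean of at least 10 counts and exact 95% intervals. A floor of 3 counts stands for 0, and floors and intervals cover counting error only. Alternatives were RLE, library sizes alone, no filter, DESeq2 1.42.0, the compared groups alone, a replicate block, each library left out (68 refits), 10 or 50 tags, centred tails, 1.5-fold and a prior count of 0.5. Members are named in every comparison; of the lists, VIR1, DYN2, IME1, RME1, IME2 and UME6, plus the highest and lowest called genes; and for each member the 3 genes of highest Pearson r among those of at least 10 CPM. RefSeq R64 matched 6008 of 6692 gene rows by systematic name. A table of 3′ bias was not used here.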

Additional observations from a re-analysis of the deposited data

Results flagged for a closer look

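The change 20 min after transfer to rich medium differed between cells from 1 h and 7 h in SPO for 4 of 5 genes. The test was of the difference itself (edgeR's interaction term), and it called 32.4% of all genes in the same direction. With library sizes alone, the share of called genes in that direction moved from 53.3% to 71.2%. The fall from 1 h was larger by 2.53 on the log2 scale for IME4, by 1.56 for MUM2 and by 5.09 for SLZ1. For PHO92 it was at least 139 times larger, with 3 RNA-seq counts over both libraries as the floor. Poly(A) tags gave a smaller difference for PHO92, at -4.03 (log2) from 1 h and 0.60 from 7 h, and that difference was not tested. In 2 of 2 libraries for each of these genes the percentage left at 20 min was lower from 1 h than in either library from 7 h.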

How the results depend on the processing

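Of 291 alternative values for the counts of members called, 270 stayed within 1.5 times the count reported. Among the values for single members, 1430 kept their direction and their side of the threshold. Of the rest, 22 changed sign, 26 lost the threshold, 14 gained it and 29 moved in comparisons without a test. With library sizes alone, 5 members in place of 3 were lower in RNA from 5 to 20 min from 1 h and 4 in place of 2 in tags at 20 min from 1 h. With RLE, 5 in place of 3 rose in RNA from 5 to 20 min from 7 h. Leaving out single libraries gave 3 to 5 in RNA at 5 min from 7 h, 1 to 2 in tags at 9 h and from 5 to 20 min from 7 h, and 0 to 1 for tails at 9 h against 5 h and at 5 min from 1 h. Centred tails gave 0 in place of 1 at 9 h against 5 h and 1 in place of 0 at 7 h against 1 h. In single libraries of the Xrn1 degron, 2 members were called with library sizes alone, 5 past 1.5-fold and 2 with no minimum count, in place of 1. For Ccr4 induction 1 was past 1.5-fold and 2 with no minimum count in place of 0, and 4 in tags in place of 1. With library sizes alone 23 values of single members in single libraries moved beyond their counting interval, most of them in tags. Tags of the deletion strains gave 28 past 1.5-fold in place of 17.

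Values that changed sign, not past the threshold in the reported fit, were, in log2, KAR4 at 9 h against 0 h (-0.18 to 0.39 with 1 library left out) and, at 7 h against 1 h, IME4 (-0.27) and KAR4 (-0.15) with library sizes alone and KAR4 (-0.28 to 0.32) with 1 library left out. From 5 to 20 min from 1 h KAR4 gave -0.0056 (RLE), -0.63 (library sizes alone, adjusted p = 0.0191, past the threshold), -0.0014 (DESeq2) and -0.16 (compared groups alone). In tags, with 1 library left out, IME4 gave -0.058 to 1.84 and KAR4 -0.030 to 1.24 at 9 h, and MUM2 -1.67 to 0.27 at 20 min from 1 h. In tags from 5 to 20 min from 7 h MUM2 gave 0.033 (RLE), 0.013 (library sizes alone) and 0.042 (DESeq2), and with 1 library left out MUM2 gave -0.45 to 0.40 and KAR4 -1.48 to 0.059. In tails, with 1 library left out, MUM2 gave -3.14 to 8.94 nt at 20 min from 7 h, PHO92 -2.78 to 0.11 nt at 7 h against 1 h (0.77 centred) and SLZ1 -6.04 to 1.36 nt at 5 min from 7 h. Apart from the scalings, the cause was not tested.

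Whether replicate numbers pair the samples is not in the sources used here. In RNA of the course, deviations of same-numbered libraries correlated above 0.1 in 22 of 45 pairs of hours (-0.159 to 0.403). In tags of the course they did so in 19 of 45, all pairs being positive (0.03 to 0.151). In the return to growth it was 0 of 15 pairs in RNA and 1 of 15 in tags. Tail medians also differed by replicate number in the course. A fit with a replicate block gave the same counts, 5 at 5 h among them. The all-gene share of higher calls moved by over 10 points with library sizes alone also at 3 h (45.3% to 58.7%), 9 h against 5 h (48.6% to 36.3%), 7 h against 1 h (47.1% to 32.7%), in the interaction (53.3% to 71.2%), from 5 to 20 min from 1 h (60.4% to 24.9%) and from 7 h (52.4% to 40.6%), and in tags at 5 h (49.5% to 64.0%), 9 h (47.9% to 71.3%) and 20 min from 1 h (47.9% to 33.9%). Low tag counts of IME4 and KAR4, and 14 and 7 RNA counts of them in the shallowest library, limit those values.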
